A study of Homo sapiens with 2 samples.

Results

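The 38 genes described here encode the core machinery of apoptosis: the BCL2 family, the caspases, the mitochondrial factors that activate them, the inhibitor of apoptosis proteins (IAPs) and the death receptors with their partners. They were chosen by gene symbol from a table of 61541 genes, and all 38 were in it. The table came from RNA-seq of Huh7 cells, a human hepatocellular carcinoma line, given either control siRNA (group Huh7-NC) or siRNA that targets BRF2 (group Huh7-si), and each of the 2 conditions had 1 library. BRF2 encodes a subunit of the factor that brings RNA polymerase III to its type 3 promoters, and its knockdown in hepatoma cells was studied for growth and apoptosis. The study measured apoptosis and several BCL2 family and caspase proteins by other methods, so the question here is how the mRNAs of this machinery compared between the libraries.

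In the mitochondrial pathway of apoptosis, anti-apoptotic BCL2 proteins hold the pore-forming effectors BAX and BAK in check, and BH3-only proteins relieve that block or activate the effectors. Opened mitochondria release cytochrome c, which assembles APAF1 and caspase-9 into the apoptosome, and SMAC (the product of DIABLO), which takes IAPs off caspases. Death receptors start a second route at the cell surface through FADD and caspase-8. Much of this control acts on the proteins, by cleavage, binding and degradation, which mRNA levels do not measure. Hepatocytes are cells in which death receptor signalling needs the mitochondrial route as well, through cleavage of BID.

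The libraries held 22852648 (Huh7-NC) and 22089016 (Huh7-si) reads assigned to genes. BRF2 itself had 1281 and 364 reads, which put its log2 fold change at -1.77 (95% interval, -1.94 to -1.60). All 10 hepatocyte markers examined (such as ALB, AFP and APOB) had reads in both libraries, at a summed 20101 and 20426 CPM (a gene's reads scaled to the size of its library), while the T cell marker CD3E was at 0 and the leukocyte marker PTPRC had 5 and 1 reads. The leukocyte list also held LYZ, at 467 and 409 CPM. Of 4 fibroblast markers DCN was at 0 in both libraries and the other 3 were higher in Huh7-si, as in COL1A2 (737 and 1687 reads) and COL1A1 (76 and 229 reads). Whether other cells had a part in any result was not tested.

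Fold changes below are ratios of CPM in Huh7-si to Huh7-NC, given as log2 values with the 95% Clopper-Pearson interval of the reads. The exact binomial test used, which is two-sided, compares these 2 libraries and not the conditions: with 1 library each, no difference has a replicate check, and intervals cover counting error only. TPM, the authors' length-adjusted level, allows levels of different genes to be compared. A gene was called where the fold was at least 2 and the unadjusted p of the exact binomial test was under 0.05. By this rule 10.4% of all 26379 genes with reads were called higher in Huh7-si and 1.02% were called lower. Of the 37 members with reads, 2 (5.41%) were called higher (HRK and BIRC6) and 0 lower. At a fold of 1.5 the members called higher were BIRC6, BIRC3, BCL2L2, BCL2L11, BMF and HRK, which are 6 of 37 (16.2%) against 17.6% of all genes, and the only member called lower was BAD, against 2.87% of all genes.

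Among the 32 members with at least 100 reads over both libraries, 13 were higher and 11 lower beyond counting error at any fold, which is 40.6% and 34.4%, against 46.1% and 26.2% of the 12978 genes with as many reads. In the same set 5 members (15.6%) were higher and 1 (3.13%) lower by at least 1.5-fold, against 20.8% and 3.89% of all genes. The share of members past each threshold was thus near that of all genes, and at a fold of 2 below it for higher calls. These splits moved with the scaling: edgeR's trimmed mean of M values (TMM) set the log2 fold change of every gene 0.22 lower than scaling by total reads. With TMM the counts at any fold were 11 members higher and 15 lower, beside 29.5% and 42.2% of all genes with at least 100 reads. At 1.5-fold in the same set they were 3 higher (BIRC3, BCL2L2, BIRC6) and 4 lower (BAD, BCL2L12, BID, CYCS), beside 12.2% and 13.3% of all genes. For the 36 members with 10 reads or more, the median was a log2 fold change of 0.13 by total reads and of -0.094 with TMM, and that of all genes with as many reads was 0.21 by total reads.

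**Figure D1:**
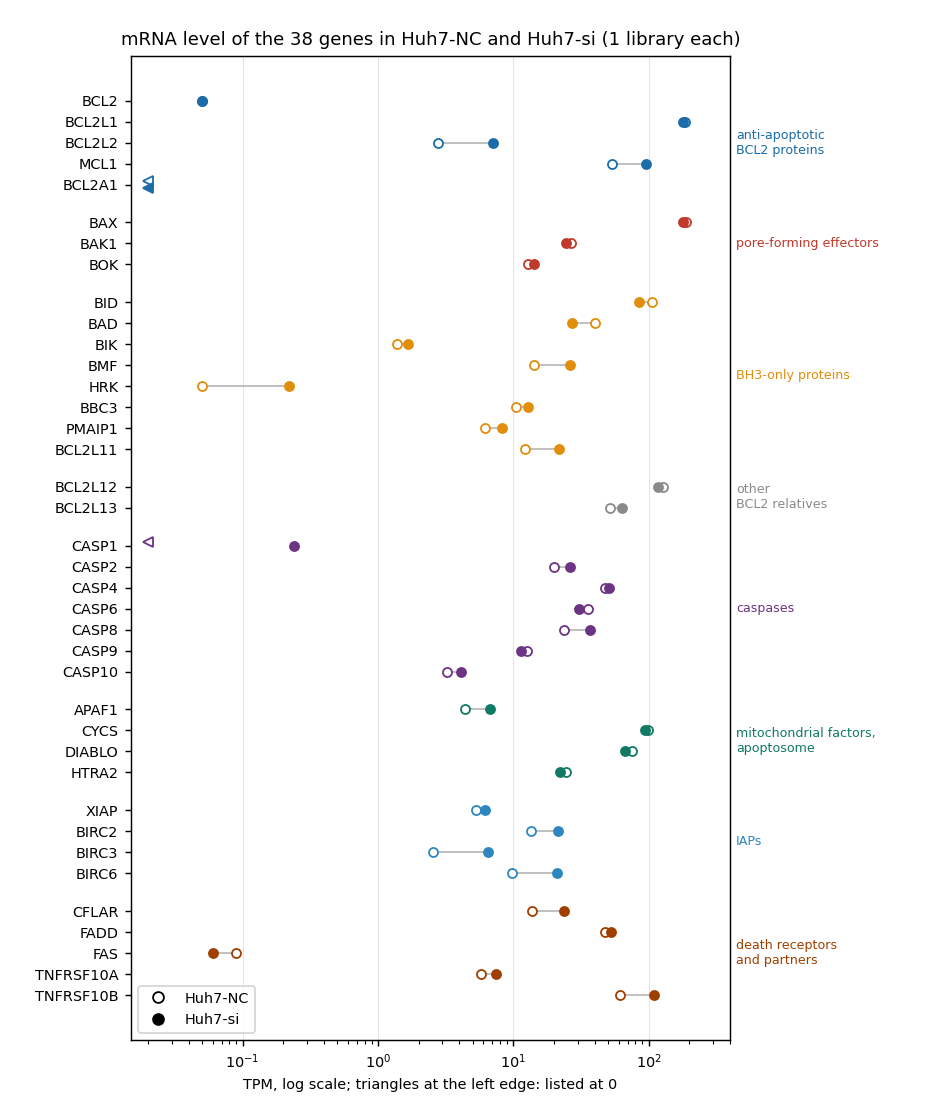
The level of each of the 38 genes in TPM (log axis) in Huh7-NC (open circles) and Huh7-si (filled circles), with genes grouped and coloured by role and 1 library per condition. BAX and BCL2L1 were the highest members in both libraries, at 179 to 189 TPM, while BCL2, HRK, FAS and CASP1 lay below 0.3 TPM and BCL2A1 was listed at 0 in both.

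The levels spanned more than 3 orders of magnitude, as the plot of TPM by role shows. The highest members in Huh7-NC were BAX (189 TPM), BCL2L1 (186 TPM), BCL2L12 (127 TPM), BID (107 TPM) and CYCS (99.0 TPM). In Huh7-si BCL2L1 (179 TPM) and BAX (179 TPM) still led, and TNFRSF10B (109 TPM) and MCL1 (95.2 TPM) stood at ranks 4 and 5 after ranks 7 and 8 in Huh7-NC. At the other end BCL2 had 6 and 4 reads, FAS 3.02 and 9.04 reads, HRK 5 and 20.5 reads, CASP1 0 and 4 reads and BCL2A1 0 reads in both libraries. The machinery measured in these cells was therefore one with abundant BCL2L1, MCL1, BAX and BID mRNA, and BCL2, the gene that names the family, was near the limit of detection.

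The anti-apoptotic genes did not move together. BCL2L1 encodes BCL-XL, a guardian of mitochondria in hepatocytes, and had 8298 and 6839 reads (Huh7-NC first, here and below), a log2 fold change of -0.23 (-0.28 to -0.18). MCL1 encodes a short-lived guardian with a similar role and had 3588 and 4507 reads, a log2 fold change of 0.38 (0.31 to 0.44). BCL2L2 encodes BCL-W and had 174 and 307 reads, a log2 fold change of 0.87 (0.60 to 1.14). The first of these was thus lower and the others higher, and under TMM the directions were the same, at -0.45, 0.15 and 0.65. BCL2L2 shares up to 440 bases of exon with BCL2L2-PABPN1, a readthrough gene on the same strand that had 1979 and 1688 reads, so reads could be assigned to either and the value of BCL2L2 is uncertain. BCL2 itself gave no usable comparison, since its 6 and 4 reads allow any log2 fold change from -2.80 to 1.54, and its TPM was listed at 0.05 in both libraries.

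The effectors, which form the pore in the outer mitochondrial membrane, were slightly lower in Huh7-si, and by a similar amount. BAX had 1865 and 1488 reads, a log2 fold change of -0.28 (-0.38 to -0.18). BAK1, which encodes BAK, had 1006 and 790 reads, a log2 fold change of -0.30 (-0.44 to -0.16). The less studied BOK had 518 and 411 reads, a log2 fold change of -0.28 (-0.48 to -0.10). With TMM the differences were larger, at -0.50 for BAX, -0.52 for BAK1 and -0.51 for BOK. None of the 3 reached a 1.5-fold difference by total reads or with TMM. On the TPM scale the differences were smaller, at a median log2 fold change of -0.086, and that of BOK was 0.14, in the opposite direction.

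BH3-only genes, the sensors that pass stress signals to the rest of the family, split in direction. Lower in Huh7-si were BAD, which encodes a sensor of survival signalling, and BID, the link from caspase-8 to mitochondria. BAD had 488 and 277 reads, a log2 fold change of -0.77 (-0.99 to -0.55), the most negative among members with at least 100 reads. BID had 2558 and 1751 reads, a log2 fold change of -0.50 (-0.59 to -0.41). Higher were BCL2L11, which encodes BIM, a strong activator of the effectors, and BMF, a sensor tied to the cytoskeleton. BCL2L11 had 824 and 1301 reads, a log2 fold change of 0.71 (0.58 to 0.84). BMF had 1142 and 1712 reads, a log2 fold change of 0.63 (0.52 to 0.74). For these 4 genes the direction was the same by total reads, TMM and TPM, and BAD (with GPR137, 511 and 481 reads) and BCL2L11 (with MIR4435-2HG, 958 and 919 reads) overlap expressed genes on the opposite strand, from which reads could not be told apart without strand information. HRK had the greatest fold of all called members, a log2 fold change of 2.09 (0.67 to 3.88), but on 5 and 20.5 reads, and its level stayed under 0.3 TPM in both libraries. BBC3 and PMAIP1 encode PUMA and NOXA, both known as targets of p53, and neither differed beyond counting error: BBC3 had 212 and 226 reads (log2 fold change 0.14, -0.14 to 0.42) and PMAIP1 197 and 220 (0.21, -0.08 to 0.49). BIK had 19 and 20 reads, too few to show a difference.

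Of the relatives whose role in apoptosis is less settled, BCL2L12 had 1723 and 1261 reads (log2 fold change -0.40, -0.51 to -0.30) and BCL2L13, a mitochondrial protein linked to mitophagy, had 3175 and 3062 reads (-0.003, -0.08 to 0.07). With TMM BCL2L13 was at -0.23, lower beyond counting error. BCL2L12 shares up to 716 bases of exon with IRF3 on the opposite strand, which had 2136 and 2095 reads.

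**Figure D2:**
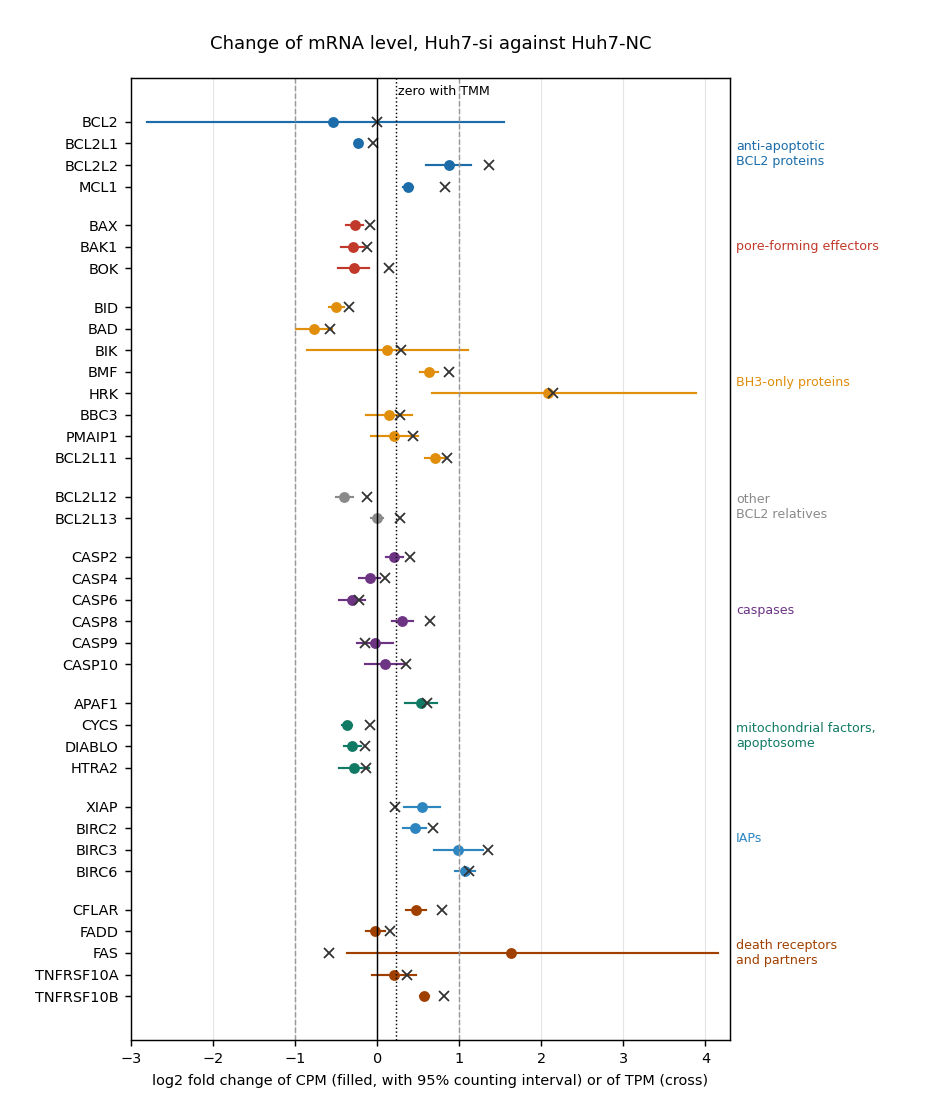
The log2 fold change of CPM in Huh7-si against Huh7-NC for the 36 members with reads in both libraries (filled circles, lines for 95% counting intervals) and of TPM (crosses), by role. Dashed lines mark a fold of 2 in either direction and the dotted line marks where zero would lie with TMM scaling. The circles of the 4 IAP genes lie right of both zero lines, from 0.46 to 1.07, and the 3 effectors lie left of them, near -0.28.

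The caspases, the proteases that carry out apoptosis or, for some, inflammation, differed little, and none of the 6 with at least 100 reads reached 1.5-fold. CASP9, the initiator of the apoptosome, had 371 and 352 reads, a log2 fold change of -0.03 (-0.24 to 0.19). CASP8, the initiator at death receptors, had 901 and 1077 reads, a log2 fold change of 0.31 (0.18 to 0.44). CASP6, an executioner, had 712 and 556 reads, a log2 fold change of -0.31 (-0.47 to -0.15). By total reads, small differences in both directions were thus beyond counting error, and CASP9 was within it. With TMM none of the caspases with at least 100 reads was higher beyond counting error: CASP8 was at 0.082, and CASP9 (-0.25) was then lower beyond it. CASP2 was higher by 0.21 (0.11 to 0.31), with a sign that reversed under TMM (-0.017). The remaining initiator CASP10 (291 and 300 reads) and the inflammatory caspase CASP4 (985 and 893 reads) did not differ beyond counting error by total reads, and with TMM CASP4 was lower beyond it (-0.32). CASP1, another inflammatory caspase, had 0 and 4 reads, too few to show a difference (exact binomial p of 0.0584 between the libraries).

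Among the factors that link mitochondria to caspases, those released from mitochondria were lower and the scaffold was higher. CYCS encodes cytochrome c and had 5377 and 4025 reads, a log2 fold change of -0.37 (-0.43 to -0.31). DIABLO had 1671 and 1310 reads, a log2 fold change of -0.30 (-0.41 to -0.20). HTRA2, a protease that also binds IAPs, had 552 and 440 reads, a log2 fold change of -0.28 (-0.46 to -0.095). By total reads all 3 differences were below 1.5-fold. With TMM they were -0.59 (CYCS), -0.53 (DIABLO) and -0.50 (HTRA2), and that of CYCS then passed 1.5-fold. HTRA2 overlaps AUP1 (4115 and 4546 reads) on the opposite strand. CYCS has many processed pseudogenes, so its count is uncertain. APAF1, the scaffold of the apoptosome, had 371 and 518 reads, a log2 fold change of 0.53 (0.34 to 0.73).

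The 4 IAP genes among the 38 were all higher in Huh7-si, with a median log2 fold change of 0.76 (0.27 relative to genes of like length, described below), and as a median kept this direction under TMM (0.54) and on the TPM scale (0.90). BIRC6 encodes a giant ubiquitin ligase that removes caspases and SMAC, and had 834 and 1689 reads, a log2 fold change of 1.07 (0.95 to 1.19). BIRC3 encodes cIAP2, a ubiquitin ligase of TNF receptor complexes and a well known target gene of NF-kappaB, and had 141 and 270 reads, a log2 fold change of 0.99 (0.69 to 1.29). BIRC2 encodes its close relative cIAP1, adjacent on the same chromosome, and had 712 and 944 reads, a log2 fold change of 0.46 (0.31 to 0.60). XIAP, a direct inhibitor of caspases, had 297 and 418 reads, a log2 fold change of 0.54 (0.32 to 0.76). IAP genes in the wider list of apoptosis genes did not all share this direction. By total reads BIRC6 alone among the 4 was called at 2-fold, and BIRC3 stood just short of that threshold at 1.98-fold. With TMM the log2 fold change of BIRC6 was 0.84, short of 2-fold, and it was not called. In TPM the 4 went from 9.77 to 21.2 (BIRC6), 2.56 to 6.54 (BIRC3), 13.5 to 21.6 (BIRC2) and 5.31 to 6.16 (XIAP), so that in TPM BIRC3 passed 2-fold and XIAP changed little.

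BIRC6 (chr2:32357028-32618899 of GRCh38, plus strand) and BIRC3 (chr11:102317450-102339403, plus strand) are the IAP genes with the largest differences, and the bases upstream of their annotated starts are shown to let the sequences be compared. They come from RefSeq (GRCh38.p14), where 31 of the 38 members had an entry. Capitals mark matches, on either strand, to the kappaB motif (GGG, any 2 bases and TTTCC) in BIRC3 (chr11:102317234-102317449, plus strand) and to the GC box GGGCGG in BIRC6 (chr2:32356773-32357022, plus strand, the first of 2 RefSeq starts).
BIRC3: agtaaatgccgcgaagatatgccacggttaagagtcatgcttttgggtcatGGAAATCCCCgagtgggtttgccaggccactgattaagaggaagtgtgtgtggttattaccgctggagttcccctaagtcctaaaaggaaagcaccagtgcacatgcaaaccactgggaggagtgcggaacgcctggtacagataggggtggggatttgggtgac
BIRC6: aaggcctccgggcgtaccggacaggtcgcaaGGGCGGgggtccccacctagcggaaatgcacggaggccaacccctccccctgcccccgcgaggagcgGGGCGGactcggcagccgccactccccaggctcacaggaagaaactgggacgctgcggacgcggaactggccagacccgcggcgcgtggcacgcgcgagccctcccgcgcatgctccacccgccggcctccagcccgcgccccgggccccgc
The kappaB match in BIRC3 began 199 bases before the RefSeq start. In the 250 bases before the start, 1.73% of 35116 RefSeq promoters held this motif, and BIRC3 was the only 1 of the 31 member genes that did. The GC box occurred in 42.6% of all promoters and in 63.8% of the 58 promoters of member genes, some of which had several starts. The GC box holds C followed by G, whose median count in the 250 bases was 25 in the 31 member genes and 11 in all promoters. The first median took the highest entry of each gene and the second took every entry, so the 2 are not counted alike. Whether the GC box share differed beyond base content was not tested. The 2 matches in BIRC6 began 219 and 152 bases before its start. The motifs were picked after the values were seen. They are matches of letters, not sites of binding.

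At the cell surface, TNFRSF10B, which encodes the TRAIL receptor DR5, was the most abundant death receptor among the 38 genes. It had 3930 and 5663 reads, a log2 fold change of 0.58 (0.52 to 0.64), or 62.0 and 109 TPM. CFLAR encodes cFLIP, the inhibitor that takes the place of caspase-8 at the receptor, and had 1028 and 1379 reads, a log2 fold change of 0.47 (0.36 to 0.59). Both a receptor and the brake below it were therefore higher by a similar amount. The adaptor FADD had 1355 and 1290 reads, a log2 fold change of -0.02 (-0.13 to 0.09), which with TMM was -0.25 and beyond counting error. TNFRSF10A, which encodes the other TRAIL receptor that signals death (DR4), had 228 and 254 reads, a log2 fold change of 0.20 (-0.06 to 0.47). FAS, with 3.02 and 9.04 reads, was too low for a comparison, and its TPM was lower in Huh7-si.

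Longer genes as a class had higher values in Huh7-si, which bears on each of the differences above. Across the 32 members with at least 100 reads, Spearman's rho between gene length and log2 fold change was 0.69, and across all 12978 such genes it was 0.50. These points share the same 2 libraries and genes are not independent, so the values are descriptions. The 16 shorter members (799 to 2626 bases) had a median log2 fold change of -0.28 and the 16 longer members (2690 to 15687 bases) one of 0.49. To set each gene beside genes of its own length, the median log2 fold change of the genes in the same 1 of 20 length bins was subtracted.

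Relative to genes of like length, BIRC6 stayed 0.39 above, BIRC3 0.60 and BCL2L2 0.65, while XIAP, with a like-length median of 0.67, was at -0.13 and APAF1 at -0.01. In the other direction BAD was 0.63 below genes of like length and BID 0.58 below. The IAP genes thus split: BIRC3, BIRC6 and BIRC2 (0.14) lay above genes of their length, and XIAP did not. The effectors had a median of -0.37 on this scale, and 13 of the 16 shorter members were below their like-length median. CFLAR, a short gene by its listed length of 2128 bases, was 0.40 above genes of like length, and TNFRSF10B was 0.32 above. The listed length was not always the one that the authors' TPM implies. In Huh7-NC CFLAR had 45.0 CPM and 13.65 TPM, and BIRC6, listed at 15687 bases, had 36.5 CPM and 9.77 TPM. XIAP, listed at 8584 bases, had 13.0 CPM and 5.31 TPM, and BIRC3, listed at 4846 bases, had 6.17 CPM and 2.56 TPM. CPM thus stood in a similar proportion to TPM within each of these pairs, despite their listed lengths. Like-length values, and with them the split of the IAP genes, rest on the listed lengths. What sets the relation with length was not tested.

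**Figure D3:**
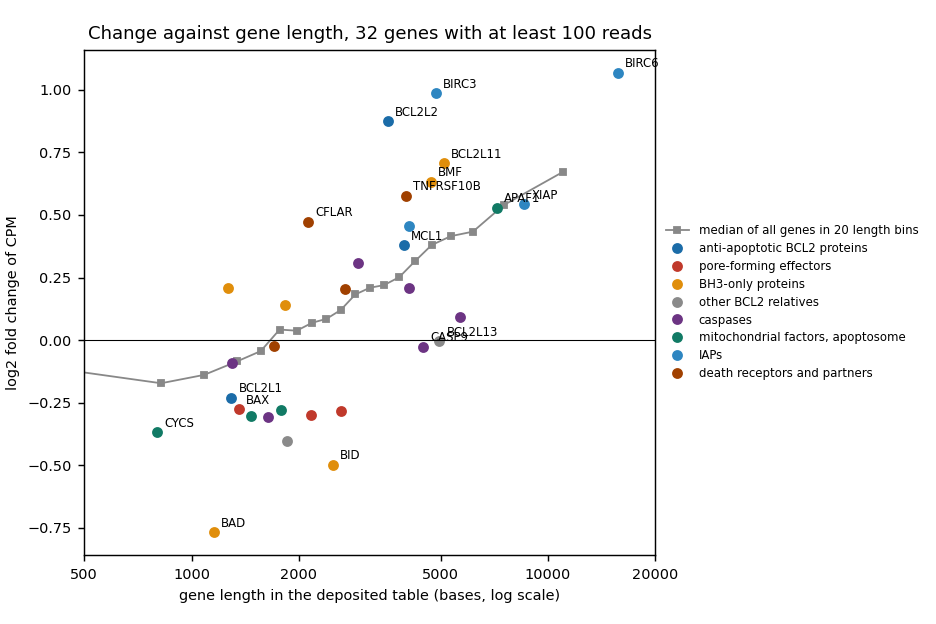
The log2 fold change of CPM in Huh7-si against Huh7-NC plotted against gene length (bases, log axis) for the 32 members with at least 100 reads, coloured by role, with the median of all genes in 20 length bins as a grey line (the last point is drawn at 1.3 times that bin's lower edge). BIRC3, BCL2L2, CFLAR and BIRC6 lie above the line, APAF1 and XIAP lie on or below it, and BAD and BID lie furthest below.

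Ratios between opposing genes within a library do not depend on how the libraries were scaled to each other. The ratio of BAX to BCL2 reads, a common index of apoptotic tone, was 311 in Huh7-NC and 372 in Huh7-si, but with 6 and 4 reads of BCL2 the log2 change of 0.26 had an interval from -1.57 to 2.09. Against BCL2L1, the guardian these cells express, the ratio of BAX reads was 0.225 and 0.218 (log2 change -0.05, -0.16 to 0.06). That of BAK1 reads was 0.121 and 0.116 (-0.07, -0.21 to 0.07). Read ratios between genes depend on their lengths. In TPM the ratios were 1.02 and 0.996 for BAX, and 0.143 and 0.137 for BAK1. Between these libraries BAX and BAK1 mRNA therefore kept their proportion to BCL-XL mRNA within counting error. The interval of the BAX ratio, 0.898 to 1.04-fold, covers counting error only and sets no bound on a difference between the conditions. Against MCL1, the ratio of BAK1 reads went from 0.280 to 0.175 (log2 change -0.68, -0.83 to -0.53). In TPM this ratio went from 0.493 to 0.257, a log2 change of -0.94.

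For the caspase side, the ratio of CASP9 to XIAP reads was 1.25 in Huh7-NC and 0.841 in Huh7-si (log2 change -0.57, -0.87 to -0.27), and that of DIABLO to XIAP was 5.62 and 3.13 (-0.85, -1.08 to -0.61). Both were lower in Huh7-si beyond counting error. XIAP is the longer gene in each pair by listed length, and the medians of genes of like length differed by -0.29 and -0.72 in the same direction. These medians rest on the listed lengths, and whether length had a part in either difference was not tested. On the TPM scale the log2 changes were -0.37 and -0.36.

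**Figure D4:**
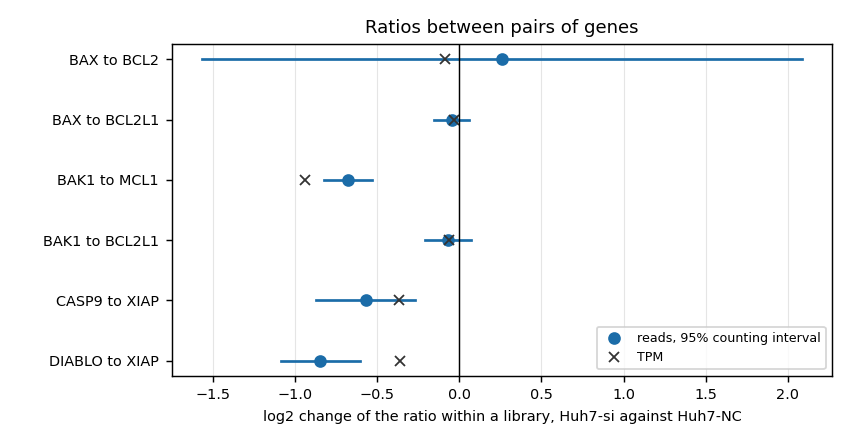
The log2 change, from Huh7-NC to Huh7-si, of 6 ratios between pairs of genes in reads (circles, with 95% counting intervals) and in TPM (crosses). The ratios of BAX and BAK1 to BCL2L1 sit at zero, that of BAX to BCL2 has an interval over 3 log2 units wide, and those to MCL1 and XIAP lie below zero.

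Beyond the 38, a list of 61 further apoptosis genes (receptors, adaptors, nucleases, BAG and BNIP proteins and others) was examined, of which 58 had reads. By the 2-fold rule 3 were higher (TRAF1, PIDD1 and BCL2L15) and 1 lower (PYCARD), which is 5.17% and 1.72% against the 10.4% and 1.02% of all genes. TRAF1, an adaptor that joins cIAP proteins to TNF receptors and, like BIRC3, a known NF-kappaB target, had 32 and 121 reads, a log2 fold change of 1.97 (1.40 to 2.58). PIDD1, the scaffold that activates caspase-2, had 317 and 678 reads, a log2 fold change of 1.15 (0.95 to 1.34). BAG1, a co-chaperone that binds BCL2, had 911 and 563 reads, a log2 fold change of -0.65 (-0.80 to -0.49). In CPM the log2 fold changes of TRAF1 and PIDD1 exceeded that of every member with at least 100 reads, though the interval of PIDD1 overlapped that of BIRC6. In TPM PIDD1 (1.12) stood below BCL2L2 (1.36) and BIRC3 (1.35). BCL2L15 (under 10 reads in either library) and PYCARD, the inflammasome adaptor ASC (51 and 23 reads), rested on few reads. Of the 50 genes of this list with at least 100 reads, 15 (30.0%) were higher and 20 (40.0%) lower beyond counting error at any fold, against 46.1% and 26.2% of all genes, and with TMM these were 11 and 32. Among the 54 with 10 reads or more the median was a log2 fold change of 0.01, against 0.21 for all genes.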

How the data were processed

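RNA from Huh7 cells (a hepatocellular carcinoma line) was sequenced by the authors after control or BRF2 siRNA, 1 library per condition. The submitters' processing notes name TopHat2 2.0.12, Bowtie2 2.0.6 and GRCh37. The counting tool, the annotation and strandedness are not given in the sources used here. Of the table's gene identifiers 94.8% are in GENCODE release 29, from which GRCh38 positions and exon overlaps were taken.

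The authors deposited 1 table with an estimated count per gene in each library, unscaled and in part fractional. It also holds a TPM value per gene, computed by the authors. Log2 fold changes in TPM exceeded those in CPM by a median of 0.18 over genes with at least 100 reads, so the scales differ. The table's columns of the authors' own fold changes and p-values were not used.

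Estimated counts were rounded to whole numbers for the exact binomial test, computed with SciPy 1.17.1 over all 26379 genes with reads. A fold of 2 with an unadjusted p under 0.05, the study's thresholds, made a call. Intervals are 95% Clopper-Pearson. Medians used genes with at least 10 reads over both libraries and 0.5 reads added. Intervals of ratios use the normal approximation to the log of read counts. edgeR 4.0.16 and DESeq2 1.42.0 gave alternative scalings, and edgeR exact tests with an assumed coefficient of variation. Scripts were checked on simulated data. The 38 genes, the other lists and the motifs were chosen with earlier results of these data known. Every member was described, and of the other apoptosis genes those called at 2-fold and the 3 of largest change with at least 100 reads. Some further genes of that list are not reported here by name.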

Additional observations from a re-analysis of the deposited data

How the results depend on the processing

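No result has a replicate check, and no library could be left out. No paired analysis was possible because each condition has 1 library. Low counts limited BCL2, BCL2A1, HRK, BIK, FAS and CASP1. The number of members called higher (2) was 1 with TMM, median of ratios or upper quartile scaling, where each library had 10 reads, with 1 CPM added, or set against genes of like length, 4 in TPM, 6 at 1.5-fold and 0 with an assumed coefficient of variation of 0.4. The number called lower (0) was 1 at 1.5-fold. With TMM at 1.5-fold, added after seeing the data, 4 members with any reads were higher (HRK beside the 3 with at least 100 reads) and 4 lower, and 11 of the other apoptosis genes were lower. Of the 50 other apoptosis genes with at least 100 reads, 2 (4%) were higher and 10 (20%) lower, beside 12.2% and 13.3% of all genes. TMM counts at any fold were also added after seeing the data. Of the other apoptosis genes, the 3 called higher by the 2-fold rule became 6 in TPM and 1 at the variation of 0.4. The 1 called lower by that rule became 0 in TPM, with 1 CPM added, at the variation of 0.4 or against genes of like length, and 2 at 1.5-fold.

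The median of members (0.13) was -0.094 with TMM, -0.076 with median of ratios, -0.055 with upper quartile scaling and -0.037 against genes of like length. In the same order, the median of the other apoptosis genes (0.01) was -0.21, -0.19, -0.17 and -0.15, with 0.19 in TPM and -0.015 where each library had 10 reads, that of the anti-apoptotic genes (0.07) was -0.15, -0.13, -0.11 and -0.0091, and that of the caspases (0.03) was -0.19, -0.17, -0.15 and -0.19. The BH3-only median (0.17) was -0.050, -0.032 and -0.012 under the first 3 scalings, and BCL2L12 and BCL2L13 had a median of 0.077 in TPM. With TMM the log2 fold changes of BIK (-0.10), BBC3 (-0.083), PMAIP1 (-0.016), CASP2 (-0.017), CASP10 (-0.13) and TNFRSF10A (-0.022) turned negative, as did BIK (-0.084), BBC3 (-0.066), CASP10 (-0.11) and TNFRSF10A (-0.0040) with median of ratios and BIK (-0.063), BBC3 (-0.045) and CASP10 (-0.092) with upper quartile scaling. Against genes of like length CASP2 (-0.11), CASP10 (-0.32), APAF1 (-0.010) and XIAP (-0.13) were negative. In TPM BOK (0.14), BCL2L13 (0.28), CASP4 (0.097), FADD (0.16) and FAS (-0.58) changed sign. The log2 change in TPM was -0.086 for BAX to BCL2, -0.94 for BAK1 to MCL1 and -0.36 for DIABLO to XIAP. The cause was not tested.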
